A study of Rattus norvegicus with 24 samples.

Results

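The miRNAs described here are those of rat that carry the names miR-219 and miR-338, which are known above all from oligodendrocytes, the myelin-forming cells of the brain. The members were taken by name, and all 6 (rno-miR-219a-5p, rno-miR-219a-2-3p, rno-miR-219a-1-3p, rno-miR-219b, rno-miR-338-3p and rno-miR-338-5p) were among the 1098 miRNAs counted. Small RNA was sequenced from 2 brain nuclei, the paraventricular nucleus of the hypothalamus (PVN), which drives the hypothalamus-pituitary-adrenal axis, and the central nucleus of the amygdala (CEA). Male Sprague–Dawley rats of one age formed 4 groups, and each group gave 3 libraries per nucleus, 24 in all. Normal controls (NC) had no surgery. The HT group underwent partial hepatectomy under isoflurane, the HT + EA group also received electroacupuncture at the hind limb points Zusanli and Sanyinjiao before and after surgery, and the HT + SEA group had needles placed at the same points without current (sham). All rats, NC and HT included, were held awake in a restraint device for the time of the needling sessions, so restraint was common to every group. The nuclei were dissected by atlas the day after the last session, and the study states that its brain samples came from different rats of one batch. The stated number of rats is below the number of libraries, and the labels do not tie a library to a rat, so whether a PVN and a CEA library share a rat is not known. Libraries were treated as separate units. The p-values set a difference against the spread between libraries, which the fits estimate in part over all miRNAs together. That spread may in part be technical.

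A miRNA is cut from a hairpin, and either arm (5p or 3p) can be loaded into the silencing complex, where bases 2 to 8, the seed, pair with target mRNAs. miR-219 and miR-338 are strongly enriched in oligodendrocytes, rise as precursors differentiate, and repress transcripts that keep the precursors immature, such as Sox6, Hes5, Pdgfra and Zfp238. miR-338 lies within an intron of Aatk, a kinase gene expressed in the nervous system, while miR-219 is made from more than one locus and has also been studied in neurons. The mRNA libraries of the series were not analysed here, so the oligodendrocyte label could not be checked against myelin genes, and the miRNAs themselves are the only oligodendrocyte measure in what follows.

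The sequences are shown first because they decide which of the 6 members are separate measurements. Mature sequences came from RefSeq (GRCr8, not the build to which the reads were mapped), where all 6 members were matched. Capitals mark the seed.
miR-219a-5p: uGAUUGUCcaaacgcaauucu
miR-219a-2-3p: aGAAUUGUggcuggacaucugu
miR-219a-1-3p: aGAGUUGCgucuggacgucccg
miR-219b: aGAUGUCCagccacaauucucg
miR-338-3p: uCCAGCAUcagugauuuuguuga
miR-338-5p: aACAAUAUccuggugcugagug
No seed was shared between members, and each of the 6 seeds belonged to a single mature name among the 693 in the RefSeq table.

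The hairpin Mir219-2 lies at chr3:33516504-33516599 on the minus strand, in a stretch spanned by the protein-coding gene Cercam and the lncRNA LOC120101515. It holds miR-219a-5p and miR-219a-2-3p, its opposite arms, in capitals.
Mir219-2: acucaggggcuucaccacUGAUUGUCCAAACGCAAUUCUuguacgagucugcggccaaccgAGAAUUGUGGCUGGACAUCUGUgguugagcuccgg
The hairpin Mir219a1 lies at chr20:4831580-4831689 on the plus strand, between Hsd17b8 and Ring1 with no gene spanning it. It holds the same 5p sequence with a different 3p arm, miR-219a-1-3p.
Mir219a1: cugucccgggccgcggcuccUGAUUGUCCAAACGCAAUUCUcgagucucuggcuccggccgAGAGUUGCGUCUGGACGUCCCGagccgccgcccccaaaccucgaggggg
Reads of miR-219a-5p can therefore come from either hairpin, while each 3p arm belongs to a single one. How the counting treated a read with 2 places is not given in the sources used here. The hairpin Mir338 lies at chr10:105796342-105796407 on the minus strand within Aatk.
Mir338: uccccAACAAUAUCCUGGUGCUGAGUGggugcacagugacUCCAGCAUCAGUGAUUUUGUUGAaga

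Opposite the hairpins Mir219-2 and Mir338, further annotated miRNAs lie on the other strand. miR-219b (hairpin Mir2964) shares a stretch of 20 bases with miR-219a-2-3p on opposite strands, and miR-3065-5p and miR-3065-3p (hairpin Mir3065) share 20 and 19 bases with miR-338-3p and miR-338-5p.
miR-3065-5p: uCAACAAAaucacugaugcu
miR-3065-3p: uCAGCACCaggauauuguugggga
The counts of such pairs were close to identical. miR-338-3p and miR-3065-5p had equal counts in all 24 libraries. miR-219b had between 97.0% and 99.9% of the count of miR-219a-2-3p in every library, and miR-3065-3p had between 94.5% and 98.1% of that of miR-338-5p. Over the whole table, 44 pairs of known miRNAs overlap on opposite strands, and in 27 of them the smaller count was at least 90% of the larger in every library. Reads from the 2 strands cannot be told apart in such pairs, and the seed of miR-219b differs from that of its partner. miR-219b was therefore kept in the counts of members but not read as a separate measurement, which leaves 5. For miR-338-3p and miR-338-5p the same limit holds, and their values below are those of the names miR-338-3p and miR-338-5p as counted.

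Libraries held 6584345 to 14828269 counts in the PVN and 9463321 to 14913564 in the CEA. A miRNA is taken as seen from 3 counts, and the lowest count of any member was 34. Levels are given as CPM, the library's counts scaled to a common total of 1e+06, and fold changes after TMM scaling, which corrects for a shift in composition. The scaling factors lay between 0.822 and 1.06, with the lowest in replicate 1 of the CEA HT group. Fold changes were fitted over all miRNAs with edgeR's quasi-likelihood test. A miRNA is called where its unadjusted p is under 0.05, which is the cutoff in the study's methods, and the p printed is the Benjamini-Hochberg adjusted p over all miRNAs tested, so that a called miRNA can carry a high adjusted p.

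The members spanned almost 3 orders of magnitude. miR-219a-2-3p was the most abundant, with a mean of 3481 CPM over the 24 libraries and rank 43 of 1098, and it alone took 0.160% to 0.292% of all counts in the PVN and 0.335% to 0.691% in the CEA. miR-338-5p (423 CPM, rank 128) and miR-338-3p (411 CPM, rank 134) were nearly level with each other. miR-219a-5p followed at 109 CPM (rank 215), and miR-219a-1-3p at 5.54 CPM (rank 403), with 34 to 111 counts per library. The 3p arm of Mir219-2 thus exceeded the 5p arm in every library, by 19.7 to 72.0 times in the PVN and 21.1 to 84.3 times in the CEA.

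The order of the 8 groups by mean level differed between members. For miR-219a-2-3p it ran from CEA HT + EA (5100 ± 1048 CPM, SD, n = 3) down to PVN NC (2004 ± 380 CPM), and the only neighbours in this order whose libraries did not overlap were CEA HT and PVN HT + EA, where the nuclei meet. For miR-338-3p the order ran from CEA HT + SEA (612 ± 163 CPM) to PVN NC (218 ± 64.3 CPM), again with a single gap, between CEA HT + EA and PVN HT. For miR-338-5p, from CEA HT + SEA (611 ± 223 CPM) to PVN NC (255 ± 67.5 CPM), all neighbours overlapped. For miR-219a-5p the order ran from CEA NC (201 ± 60.8 CPM) to PVN HT + EA (46.6 ± 7.33 CPM), and the only gap was at its lower end, between PVN HT + SEA (75.0 ± 19.4 CPM) and PVN HT + EA. For miR-219a-1-3p all neighbours overlapped, from PVN HT + EA (7.01 ± 0.515 CPM) to CEA NC (4.86 ± 0.895 CPM).

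**Figure D1:**
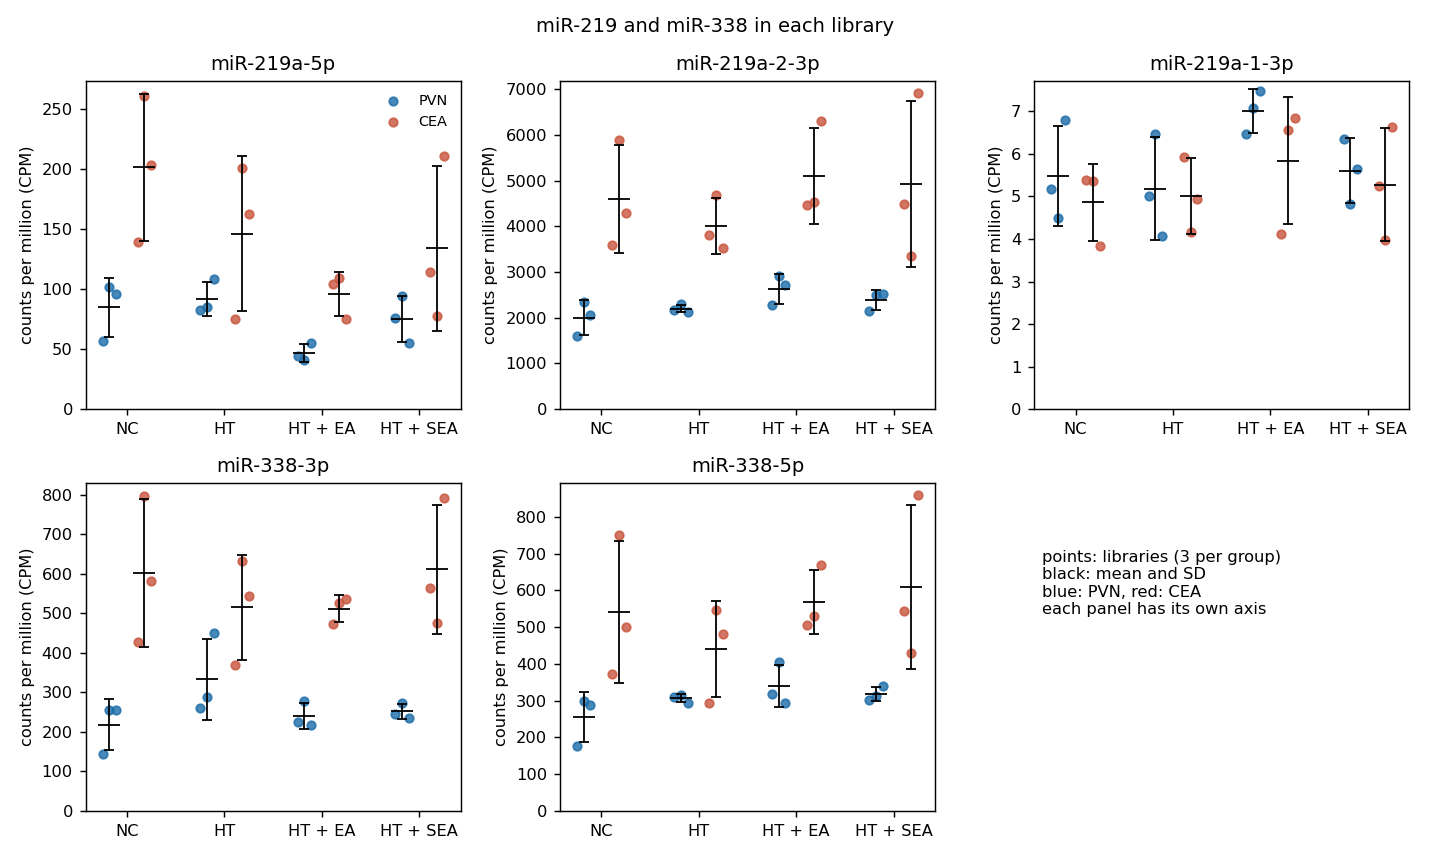
Level of each member in CPM (vertical axis, from 0, one scale per panel) in the 4 treatment groups, with 3 libraries per group as points (blue PVN, red CEA) and mean and SD in black. miR-219a-2-3p stayed between 1595 and 2917 CPM in the PVN and between 3350 and 6912 CPM in the CEA, while miR-219a-1-3p lay at 3.83 to 7.49 CPM in both nuclei. miR-219b is left out since its counts nearly equal those of miR-219a-2-3p.

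The first comparison was between the nuclei. Both miR-219 and miR-338 were lower in the PVN than in the CEA, by close to 2-fold, except for the rare miR-219a-1-3p. In the PVN, miR-219a-2-3p measured 1595, 2346 and 2070 CPM in the NC libraries, 2173, 2294 and 2132 in HT, 2278, 2917 and 2712 in HT + EA and 2149, 2492 and 2530 in HT + SEA. In the CEA it measured 3595, 5898 and 4297 CPM in NC, 3807, 4684 and 3525 in HT, 4463, 4528 and 6310 in HT + EA and 4497, 3350 and 6912 in HT + SEA. The 12 PVN libraries lay wholly below the 12 CEA libraries, with the highest PVN value at 2917 and the lowest CEA value at 3350 CPM. PVN libraries lay wholly below CEA libraries in every treatment for 5.74% of all miRNAs.

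With treatment as a covariate, the PVN was lower by 2.09-fold for miR-219a-2-3p (log2 fold change -1.06, SE 0.0973, edgeR adjusted p = 2.26e-11). miR-338-3p, its usual companion in oligodendrocytes, was 2.23-fold lower (log2 fold change -1.16, SE 0.115, edgeR adjusted p = 1.45e-10). miR-219a-5p was 1.97-fold lower (log2 fold change -0.98, SE 0.142, edgeR adjusted p = 3.99e-07), and miR-338-5p 1.82-fold lower (log2 fold change -0.86, SE 0.114, edgeR adjusted p = 7.25e-08). Counting miR-219b, 5 of the 6 members passed an adjusted p under 0.05, all lower in the PVN, where 45% of all miRNAs were called, 39.9% passed the adjusted p and 19.8% did so in that direction. The median log2 fold change was -1.02 over the members and 0.03 over all miRNAs. In bulk tissue, fewer cells of a type and less RNA per cell cannot be told apart.

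The difference held within each treatment group alone. For miR-219a-2-3p the log2 fold change between the nuclei was -1.22 in NC, -1.03 in HT, -0.99 in HT + EA and -1.07 in HT + SEA (SE 0.131 to 0.187). For miR-338-3p it was -1.49 in NC and -0.80 in HT, the widest range among the members, with -1.13 in HT + EA and -1.30 in HT + SEA (SE 0.115 to 0.202). Library by library, the separation was less complete for the other members. For miR-338-3p, 1 PVN library (HT replicate 3, 451 CPM) lay above the lowest CEA library, and for miR-338-5p 10 of 12 did, because CEA HT replicate 1 measured only 293 CPM. For miR-219a-5p, 7 of 12 PVN libraries lay above the lowest CEA library at 74.8 CPM.

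**Figure D2:**
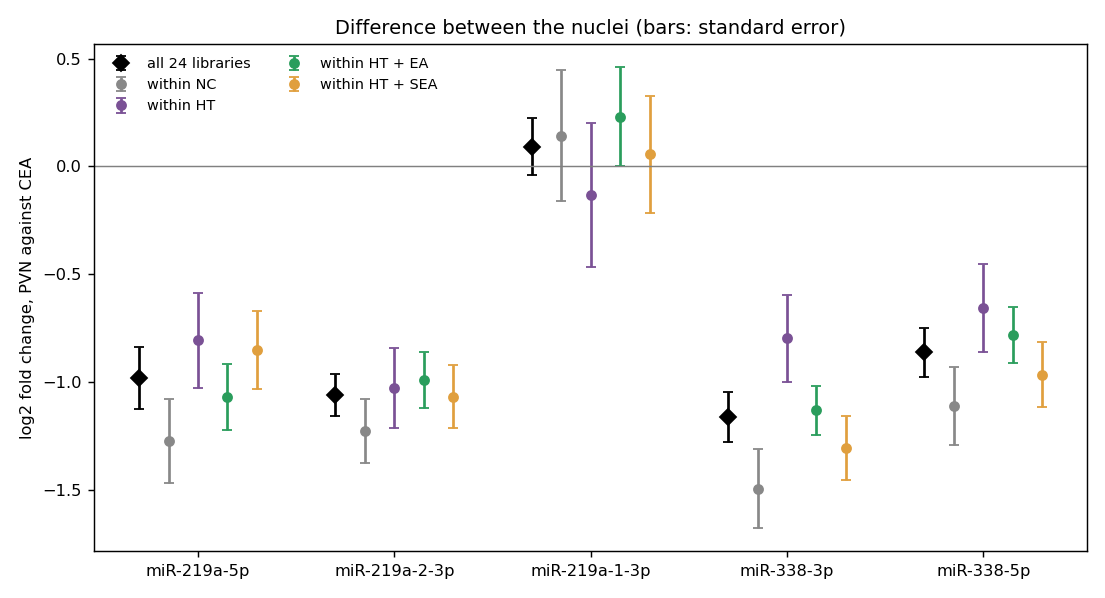
Log2 fold change of PVN against CEA (vertical axis) for 5 members, from the 24 libraries together, adjusted for treatment (black diamonds) and within each treatment group of 3 against 3 libraries (coloured points), with standard errors. All points of miR-219a-5p, miR-219a-2-3p, miR-338-3p and miR-338-5p lie below 0, from -0.66 to -1.49, while those of miR-219a-1-3p lie between -0.13 and 0.23.

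The 3p arm of the other miR-219 hairpin did not follow this pattern. miR-219a-1-3p measured 5.82 ± 1.10 CPM (SD, n = 12) in the PVN and 5.25 ± 1.08 CPM (SD, n = 12) in the CEA. The log2 fold change was 0.09 (SE 0.131, edgeR adjusted p = 0.619), and its libraries overlapped in every treatment. As a ratio within each library, which does not depend on scaling, miR-219a-2-3p exceeded miR-219a-1-3p by 305 to 523 times in the PVN and by 642 to 1127 times in the CEA. The log2 ratio was 8.63 ± 0.288 (SD, n = 12) in the PVN and 9.77 ± 0.315 (SD, n = 12) in the CEA. The difference of -1.14 was larger than the spread between libraries (exact permutation test within treatments, two-sided, p = 1.25e-05, the smallest that 160000 arrangements allow, adjusted p = 0.000563 over the 45 ratio tests made). Its counts of 34 to 111 limit the precision of the ratio in a single library.

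The arms of miR-338 also stood in a different proportion in the nuclei. miR-338-3p was the less abundant arm in most PVN libraries, with 0.685 to 1.53 counts per count of miR-338-5p and a median of 0.825, and slightly the more abundant in the CEA, with 0.802 to 1.26 and a median of 1.09. The log2 ratio of miR-338-3p to miR-338-5p was -0.25 ± 0.308 (SD, n = 12) in the PVN and 0.07 ± 0.183 (SD, n = 12) in the CEA, a difference of -0.32 (exact permutation test within treatments, two-sided, p = 0.000863, adjusted p = 0.0194). The highest PVN ratio, 1.53, belonged to HT replicate 3, the library with the highest miR-338-3p of the PVN. By contrast, the log2 ratio of miR-219a-5p to miR-219a-2-3p differed by only 0.09 between the nuclei (exact permutation test, p = 0.560), with SDs of 0.588 in the PVN and 0.610 in the CEA (n = 12 each).

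The next comparisons asked what surgery and needling did within each nucleus. HT + EA and HT + SEA were both set against the same HT libraries, so these comparisons are not independent of each other or of HT against NC. The clearest difference was in miR-219a-5p with electroacupuncture in the PVN. It measured 82.5, 84.8 and 108 CPM in the HT libraries and 44.6, 40.5 and 54.8 CPM in the HT + EA libraries. The groups did not overlap, and the highest HT + EA library was below the lowest HT library. miR-219a-5p fell 1.91-fold (log2 fold change -0.94, SE 0.152, edgeR adjusted p = 0.000422). The call held in all 8 alternatives and without any 1 library, with adjusted p-values from 5.25e-08 to 0.0269 over the alternatives.

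Counting miR-219b, 4 of the 6 members were called in this comparison, where 11.4% of all miRNAs were called and 15.7% had groups that did not overlap. At an adjusted p under 0.05, miR-219a-5p was the 1 member called, against 1.02% of all miRNAs. The opposite arm of the same hairpin did not fall with it. miR-219a-2-3p was 2173, 2294 and 2132 CPM in HT and 2278, 2917 and 2712 CPM in HT + EA. Its log2 fold change was 0.29 (SE 0.112, edgeR adjusted p = 0.233), with overlapping groups. That call rests on an unadjusted p. It was lost with DESeq2 and without HT + EA replicate 2 (0.19, edgeR adjusted p = 0.706) or replicate 3 (0.24, edgeR adjusted p = 0.561).

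Within each library, miR-219a-2-3p exceeded miR-219a-5p by 19.7 to 27.0 times in PVN HT, 21.6 to 28.2 times in PVN NC and 26.6 to 46.0 times in PVN HT + SEA. In PVN HT + EA it did so by 49.5 to 72.0 times, above every other PVN library. The log2 ratio of the 5p to the 3p arm was -5.82 ± 0.299 (SD, n = 3) in HT + EA against -4.59 ± 0.252 (SD, n = 3) in HT. The difference of -1.23 had an exact permutation p = 0.1, the smallest that 3 against 3 libraries allow, and the adjusted p over the 45 ratio tests was 0.375. The rare miR-219a-1-3p was 5.01, 6.47 and 4.07 CPM in HT and 6.46, 7.09 and 7.49 CPM in HT + EA, with a log2 fold change of 0.47 (SE 0.246, edgeR adjusted p = 0.480). It was called in 2 of the 8 alternatives, the replicate number as a block (edgeR adjusted p = 0.293) and legacy = FALSE, edgeR's newer estimate of spread (edgeR adjusted p = 0.439).

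In the CEA, miR-219a-5p showed the same direction with more spread. It measured 75.4, 201 and 162 CPM in HT and 104, 109 and 74.8 CPM in HT + EA. HT replicate 1 lay with the HT + EA libraries and the groups overlapped. The log2 fold change was -0.71 (SE 0.215, edgeR adjusted p = 0.264). It was the 1 member of 6 called, where 5.28% of all miRNAs were called, and the call held in all 8 alternatives and without any 1 library (-0.97 to -0.50). With edgeR's newer estimate of spread (legacy = FALSE) its edgeR adjusted p was 0.871. Without HT replicate 1, which had the lowest HT value and the lowest scaling factor, the log2 fold change was -0.97. The 3p arm exceeded the 5p arm by 21.7, 23.3 and 50.5 times in CEA HT and by 41.6, 42.8 and 84.3 times in CEA HT + EA (log2 ratio difference -0.85, exact permutation p = 0.3, and -0.52 without HT + EA replicate 3).

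Sham needling was read in the same way. Against HT, the log2 fold change of miR-219a-5p in HT + SEA was -0.27 in the PVN (SE 0.168, edgeR adjusted p = 0.684) and -0.19 in the CEA (SE 0.240, edgeR adjusted p = 0.956), and neither was called. Single libraries decided these values. The PVN value was -0.52 and called without HT + SEA replicate 2 (edgeR adjusted p = 0.415), and -0.08 without HT + SEA replicate 3. The CEA value was called without HT + SEA replicate 3 (-0.68, edgeR adjusted p = 0.538) or HT replicate 1 (-0.45, edgeR adjusted p = 0.803), and was 0.08 without HT + SEA replicate 2 and 0.04 without HT replicate 2. HT + EA was then compared with HT + SEA directly. In the PVN, miR-219a-5p was 76.3, 93.8 and 55.0 CPM in HT + SEA, just above the HT + EA libraries, whose highest value was 54.8. The log2 fold change of HT + EA against HT + SEA was -0.70 (SE 0.119, edgeR adjusted p = 7.44e-07). This was the 1 member of 6 called, where 7.14% of all miRNAs were called, 2.72% passed an adjusted p under 0.05 and 11.3% had groups that did not overlap. The groups of miR-219a-1-3p did not overlap either, but it was higher in HT + EA and not called (0.32, SE 0.196, edgeR adjusted p = 0.728). The adjusted p of miR-219a-5p rested on a fit that gave the miRNAs no spread of their own. With edgeR's newer estimate (legacy = FALSE) it was 0.200, while the unadjusted call held.

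In the CEA the same comparison gave a log2 fold change of -0.51 for miR-219a-5p (SE 0.205, edgeR adjusted p = 0.997), 1 member of 6 called where 2.24% of all miRNAs were. It rested on HT + SEA replicate 3, at 210 CPM against 114 and 77.5, and was -0.04 without it (edgeR adjusted p = 0.988). The call was also lost without HT + SEA replicate 1 or HT + EA replicate 2 or 3 (-0.62 to -0.36). It was called in 3 of the 8 alternatives. The log2 ratio of miR-219a-5p to miR-219a-2-3p in HT + EA differed from that in HT + SEA by -0.80 in the PVN, with no overlap between the groups (exact permutation p = 0.1), and by -0.48 in the CEA, with overlap (exact permutation p = 0.3), or -0.14 without CEA HT + EA replicate 3.

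**Figure D3:**
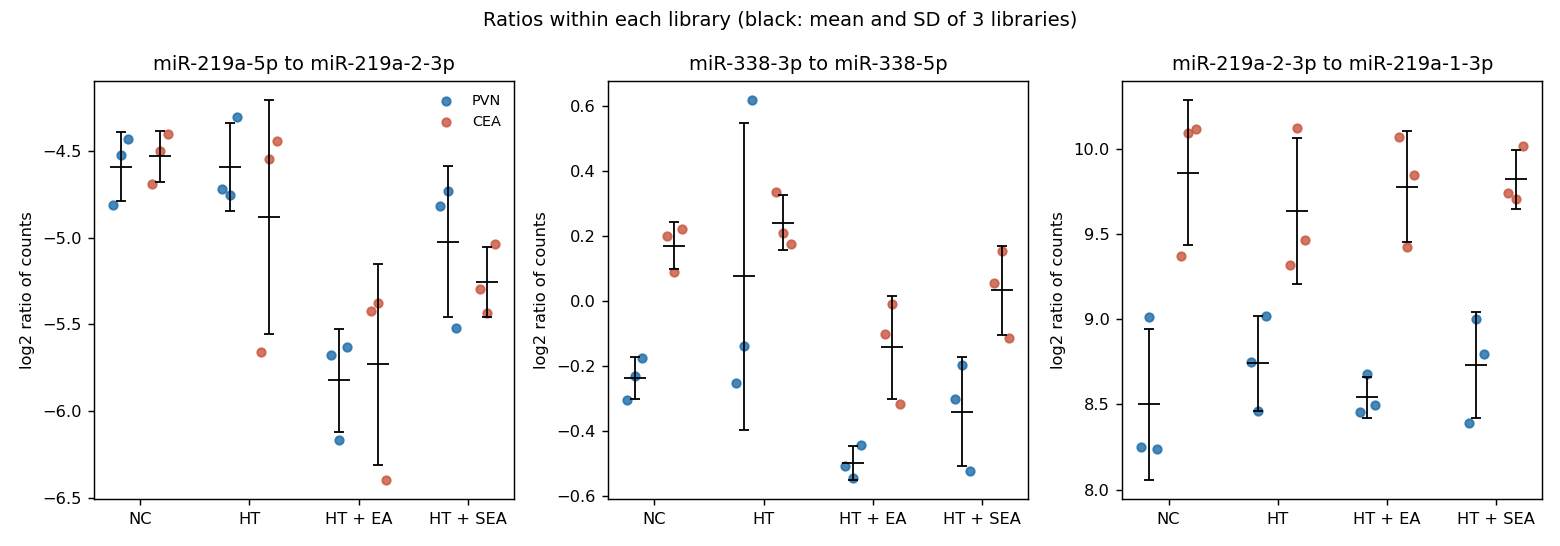
Log2 ratio of counts within each library for 3 pairs of members (vertical axes) in the 4 treatment groups, with libraries as points (blue PVN, red CEA) and mean and SD of 3 libraries in black. The ratio of miR-219a-5p to miR-219a-2-3p was lowest in PVN HT + EA, at -5.82 on average, and the ratio of miR-219a-2-3p to miR-219a-1-3p was higher in the CEA than in the PVN, 9.77 against 8.63.

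Surgery alone gave no call among the miR-219 members in the PVN. miR-219a-5p was 56.6, 102 and 95.9 CPM in NC and overlapped with HT (log2 fold change 0.07, SE 0.189, edgeR adjusted p = 0.961), and miR-219a-2-3p had a log2 fold change of 0.10 (SE 0.135, edgeR adjusted p = 0.817). The 1 member of 6 called in HT against NC was miR-338-3p, where 10.9% of all miRNAs were called. It measured 144, 255 and 256 CPM in NC and 261, 287 and 451 CPM in HT. The groups did not overlap, as for 12.8% of all miRNAs, but the highest NC library, at 256 CPM, lay just under the lowest HT library, at 261 CPM.

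miR-338-3p rose 1.48-fold in HT (log2 fold change 0.57, SE 0.168, edgeR adjusted p = 0.0283, a level that 3.25% of all miRNAs passed). The call held in 7 of 8 alternatives and was lost with filterByExpr (edgeR adjusted p = 0.385). The size rested on 2 libraries. Without HT replicate 3, at 451 CPM, the log2 fold change was 0.30 (edgeR adjusted p = 0.551), and without NC replicate 1, at 144 CPM, it was 0.31 (edgeR adjusted p = 0.656), which ended the call. NC replicate 1 had the lowest PVN level of miR-219a-2-3p, miR-338-3p and miR-338-5p. With edgeR's newer estimate of spread the adjusted p was 0.439. The other arm, miR-338-5p, was 178, 299 and 289 CPM in NC and 311, 316 and 294 CPM in HT, with overlap (log2 fold change 0.24, SE 0.165, edgeR adjusted p = 0.734).

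Against these HT libraries, miR-338-3p was lower in both needled groups of the PVN. It measured 225, 278 and 217 CPM in HT + EA and 245, 274 and 237 CPM in HT + SEA. The log2 fold change was -0.43 in HT + EA (SE 0.146, edgeR adjusted p = 0.169) and -0.38 in HT + SEA (SE 0.149, edgeR adjusted p = 0.410). Groups overlapped in both, and both calls held in all 8 alternatives. In HT + SEA against HT this was the 1 member of 6 called, where 8.3% of all miRNAs were called. The call for HT + EA also held without any 1 library. Without HT replicate 3, the values were -0.20 (edgeR adjusted p = 0.375) and -0.15 (edgeR adjusted p = 0.738), and the call for HT + SEA was lost without that library and without HT + SEA replicate 1 or 3. HT + EA and HT + SEA differed from each other by -0.08 (SE 0.0972, edgeR adjusted p = 0.865).

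miR-338-5p was called in none of the 8 treatment comparisons, with log2 fold changes from -0.24 to 0.39 and edgeR adjusted p-values from 0.659 to 0.997. The log2 ratio of miR-338-3p to miR-338-5p was lower in HT + EA than in HT in both nuclei, without overlap, with differences of -0.57 in the PVN and -0.38 in the CEA (exact permutation p = 0.1 in each, the smallest possible, adjusted p = 0.375). In HT + SEA the difference from HT was -0.42 in the PVN, with overlap (exact permutation p = 0.2), and -0.21 in the CEA, without overlap (exact permutation p = 0.1). The PVN differences rested on HT replicate 3, without which they were -0.30 for HT + EA and -0.15 for HT + SEA, and the CEA difference for HT + SEA was -0.13 without HT + SEA replicate 3.

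In the CEA, surgery gave 1 call among the members, which depended on the fit. miR-219a-5p was 139, 261 and 204 CPM in NC against 75.4, 201 and 162 CPM in HT (log2 fold change -0.43, SE 0.194, edgeR adjusted p = 0.988). It was the 1 member of 6 called, where 3.82% of all miRNAs were called. The groups overlapped, and 3 of 8 alternatives called it. The call was lost without any of 4 libraries, HT replicate 1 (-0.17), NC replicate 2 (-0.19), NC replicate 3 (-0.36) or HT replicate 3 (-0.43). One of the 3 alternatives that called it was the fit with the replicate number as a block, in a comparison where same-numbered libraries deviated together. HT was below NC in all 3 such pairs, and the blocked log2 fold change was -0.46 (edgeR adjusted p = 0.369). In CEA HT + SEA against HT, 0 of 6 members were called with edgeR at an unadjusted p under 0.05 and 0 with DESeq2, where edgeR called 4.7% of all miRNAs.

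**Figure D4:**
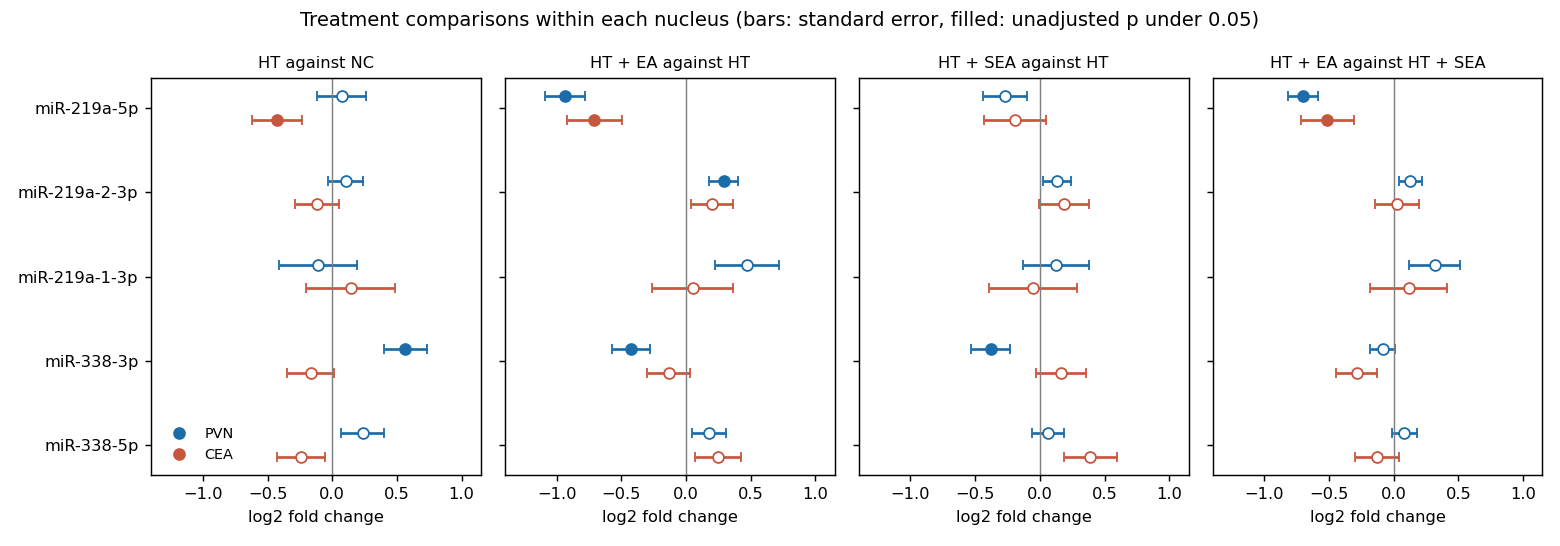
Log2 fold change (horizontal axis) of 5 members in the 4 treatment comparisons of each nucleus (blue PVN, red CEA), with standard errors. Filled points have an unadjusted edgeR p under 0.05. miR-219a-5p was lower in HT + EA in both nuclei (-0.94 and -0.71 against HT, -0.70 and -0.51 against HT + SEA), and the value of miR-338-3p in HT against NC was 0.57 in the PVN and -0.17 in the CEA.

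Whether the nuclei responded differently was tested as an interaction. The effect of HT + EA against HT on miR-219a-5p differed between PVN and CEA by -0.28 (SE 0.294, edgeR adjusted p = 0.9998), and 0 of 6 members were called in that interaction by edgeR at an unadjusted p under 0.05 or by DESeq2, against 1.9% of all miRNAs. For HT against NC, 1 of 6 members was called, where 4.98% of all miRNAs were. This was miR-338-3p, whose effect was higher in the PVN by 0.65 on the log2 scale (SE 0.265, edgeR adjusted p = 0.942). The call was lost in 3 of 7 alternatives and without PVN HT replicate 3 (0.47), PVN NC replicate 1 (0.43) or CEA NC replicate 2 (0.46). For HT + SEA against HT the interaction called 0 of 6 members with edgeR and 0 with DESeq2, against 2.66% of all miRNAs.

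The members were next compared with each other across the 24 libraries, as a description. On the log2 scale, miR-219a-2-3p and miR-338-5p had r = 0.94 over all libraries, 0.87 within the PVN and 0.83 within the CEA. miR-338-3p had r = 0.89 with miR-219a-2-3p over all libraries but 0.33 within the PVN. miR-219a-5p was more like miR-338-3p (r = 0.80, with 0.51 within the PVN and 0.75 within the CEA) than its own opposite arm, miR-219a-2-3p (r = 0.62, with -0.26 within the PVN and 0.26 within the CEA). miR-219a-1-3p had r = 0.05 with miR-219a-2-3p over all libraries but 0.36 within the PVN and 0.54 within the CEA. With miR-338-3p it had r = -0.23 over all libraries, -0.37 within the PVN and 0.07 within the CEA. These points share libraries, scaling and the difference between the nuclei.

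**Figure D5:**
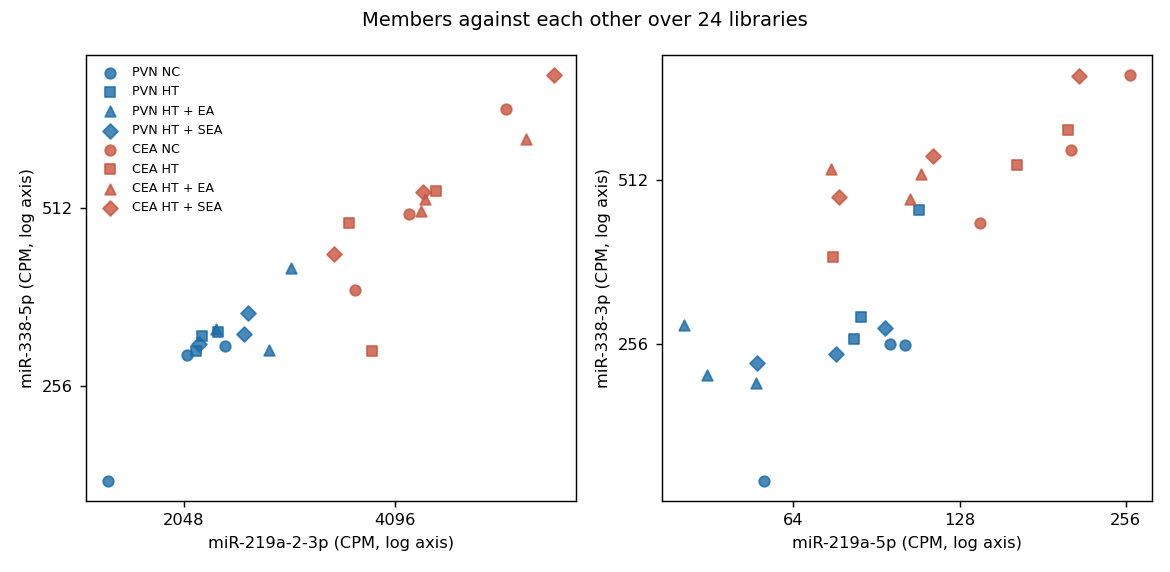
Levels of 2 pairs of members in 24 libraries (both axes in CPM on a log scale), blue for PVN and red for CEA, with a symbol for each treatment. miR-219a-2-3p and miR-338-5p lie along a line in both nuclei (r = 0.94), while in the plot of miR-219a-5p and miR-338-3p (r = 0.80) the HT + EA libraries of the PVN lie to the left, at 40.5 to 54.8 CPM of miR-219a-5p.

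Among 361 miRNAs with a mean of at least 10 CPM, the pattern of miR-219a-2-3p over 24 libraries was most like that of miR-21-5p (r = 0.97), miR-181b-5p (r = 0.97), miR-92a-3p (r = 0.96), miR-181a-1-3p (r = 0.95) and miR-3570 (r = 0.95), which lies opposite miR-181a-1-3p. After the mean of each nucleus and treatment was subtracted, miR-21-5p (r = 0.91), miR-423-5p (r = 0.88), miR-92a-3p (r = 0.87), miR-181b-5p (r = 0.86) and miR-25-3p (r = 0.85) came first. For miR-338-3p, apart from its antisense partner, the most alike were miR-186-5p (r = 0.96), miR-455-5p (r = 0.95), miR-21-5p (r = 0.95) and miR-93-5p (r = 0.94). After subtraction of group means these were miR-93-5p (r = 0.88), miR-210-3p and its antisense partner miR-3574 (r = 0.84 each) and miR-455-5p (r = 0.84). miR-21-5p and miR-92a-3p, both widely expressed, and miR-181b-5p were thus near miR-219a-2-3p with and without the group means.

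A list of 12 further miRNAs known from work on the oligodendrocyte lineage was read beside the members. It holds miR-138-5p and miR-32-5p, studied in maturation and myelin formation, miR-145-5p, miR-125a-3p, miR-27a-3p and miR-212-3p, studied as brakes on differentiation, the miR-17-92 cluster (miR-17-5p, miR-18a-5p, miR-19b-3p, miR-20a-5p and miR-92a-3p), which is linked to precursor proliferation, and miR-23a-3p, studied in myelin formation. None of these is particular to the lineage, and miR-138-5p is also among the neuronal and miR-145-5p among the mural miRNAs read further on. In PVN against CEA, 9 of 12 passed an adjusted p under 0.05, 8 lower and 1 higher in the PVN, with a median log2 fold change of -0.49, where 39.9% of all miRNAs passed and 19.8% did so lower in the PVN. miR-138-5p was the member of the list with the largest difference (log2 fold change -1.10, SE 0.0836, edgeR adjusted p = 2.22e-13), and miR-125a-3p was the one that was higher (log2 fold change 0.49, SE 0.0948, edgeR adjusted p = 5.14e-05).

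In PVN HT + EA against HT, 3 of these 12 were called, all lower, and 0 passed the adjusted p with edgeR, where 11.4% of all miRNAs were called and 5.79% were called lower. The list median was -0.07 against 0.02 over all miRNAs. They were miR-32-5p (log2 fold change -0.52, SE 0.154, edgeR adjusted p = 0.104), miR-138-5p (-0.41, SE 0.138, edgeR adjusted p = 0.169) and miR-18a-5p (-0.95, SE 0.400, edgeR adjusted p = 0.330). The call for miR-18a-5p was lost without HT replicate 3 or HT + EA replicate 3, with values up to -0.04. Against the same HT libraries, PVN HT + SEA had 2 of the 12 called, both lower, miR-138-5p (-0.33, edgeR adjusted p = 0.521) and miR-18a-5p (-1.27, edgeR adjusted p = 0.319), where 8.3% of all miRNAs were called. In the CEA, 1 of the 12 was called lower in HT + EA against HT (miR-32-5p, -0.47, edgeR adjusted p = 0.897) and 1 in HT + SEA against HT (miR-212-3p, -0.59, edgeR adjusted p = 0.529), where 5.28% and 4.7% of all miRNAs were called. In PVN HT + EA against HT + SEA, 2 of the 12 were called, where 7.14% of all miRNAs were. miR-32-5p was lower (log2 fold change -0.45, SE 0.122, edgeR adjusted p = 0.0145) and miR-145-5p higher (0.30, SE 0.0956, edgeR adjusted p = 0.0658). As for miR-219a-5p, this fit gave the miRNAs no spread of their own, and with legacy = FALSE the adjusted p-values were 0.200 and 0.311. In the CEA the same comparison called 1 of the 12, miR-32-5p (-0.48, SE 0.190, edgeR adjusted p = 0.997), where 2.24% of all miRNAs were called. In PVN HT against NC, miR-138-5p (0.42, edgeR adjusted p = 0.158) and miR-145-5p (0.37, edgeR adjusted p = 0.321) were called higher and miR-27a-3p (-0.33, edgeR adjusted p = 0.392) lower, with 0 at an adjusted p under 0.05, where 10.9% of all miRNAs were called. Each of these 3 calls was lost without at least 1 of the 6 libraries.

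Markers of the other cells that a dissected nucleus holds were read beside these results. None of the listed miRNAs was at 0 in any library. The summed level of 4 neuronal miRNAs (miR-124-3p, miR-9a-5p, miR-128-3p and miR-138-5p) was 102997 to 116875 CPM in the PVN and 137892 to 162609 CPM in the CEA, and all 4 were lower in the PVN (median log2 fold change -0.71). The 2 endothelial miRNAs, miR-126a-3p and miR-126a-5p, summed to 17489 to 21911 CPM in the PVN and 23076 to 26669 CPM in the CEA. The summed level of 4 miRNAs of ependyma and choroid plexus was higher in the PVN, which borders the third ventricle, with 2954 to 4441 CPM against 597 to 1906 CPM in the CEA. They did not move together, since miR-34c-5p (log2 fold change 2.06) and miR-204-5p (0.31) were higher in the PVN, miR-211-5p (-0.88) was lower and miR-449a-5p (-0.30) was not called, with a list median of 0.00018. The sums of 4 microglial and myeloid, 3 astrocyte-enriched, 2 mural and 2 red cell miRNAs overlapped between the nuclei. Over all miRNAs, 39.9% passed the adjusted p between the nuclei and 19.8% did so lower in the PVN. At an adjusted p under 0.05 with edgeR, 2 of the 4 microglial and myeloid and 1 of the 2 mural miRNAs were lower in the PVN, 1 astrocyte-enriched miRNA was higher and 1 lower, and 1 of the 2 red cell miRNAs was higher. The part of tissue composition in the lower PVN levels was not tested.

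Beside the lower miR-219a-5p of PVN HT + EA, the neuronal sum was 105679 to 110356 CPM against 107117 to 116875 CPM in HT, and the endothelial sum 17986 to 19729 against 17489 to 21357 CPM. In this comparison 11.4% of all miRNAs were called and 5.79% were called lower. Of the 4 neuronal miRNAs 2 were called lower and 0 higher, and of the 3 astrocyte-enriched ones (miR-29a-3p, miR-29b-3p and miR-29c-3p) 2 were called lower, among them miR-29b-3p (log2 fold change -0.84, SE 0.142, edgeR adjusted p = 0.000506). Of the 4 microglial and myeloid miRNAs 1 was called, miR-223-3p, which was 7.98-fold higher (edgeR adjusted p = 9.21e-09), while the other 3 lay between -0.12 and 0.12 on the log2 scale. Of the 2 red cell miRNAs, miR-144-3p was lower (-0.98, SE 0.210, edgeR adjusted p = 0.0108) and miR-451-5p was not called (0.17, SE 0.151, edgeR adjusted p = 0.675). The endothelial, mural, ependymal and choroid plexus lists had 0 called at an unadjusted p under 0.05 by edgeR and 0 by DESeq2. In PVN HT + SEA against the same HT libraries, 2 of 4 neuronal and 2 of 3 astrocyte-enriched miRNAs were likewise called lower, and miR-223-3p (log2 fold change 1.82, edgeR adjusted p = 0.168) and miR-34c-5p (0.27, edgeR adjusted p = 0.410) higher, where 8.3% of all miRNAs were called. Of the 3 members read as oligodendrocyte markers, miR-219a-5p and miR-338-3p were called lower in HT + EA and miR-219a-2-3p was called higher, with a median log2 fold change of -0.43. Over all 6 members, counting miR-219b, 2 were called higher and 2 lower, with a median log2 fold change of 0.23. The summed level of the 3 markers, mostly miR-219a-2-3p, was 2547 to 3236 CPM in HT + EA and 2517 to 2691 CPM in HT. The part of these in the result was not tested.

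Markers also moved with the higher miR-338-3p of PVN HT against NC, where 10.9% of all miRNAs were called and 3.25% passed the adjusted p. Of the 4 neuronal miRNAs 2 were called higher, miR-128-3p (log2 fold change 0.52, edgeR adjusted p = 0.00137) and miR-138-5p. Of the 3 astrocyte-enriched miRNAs 2 were called higher, miR-29a-3p and miR-29b-3p (0.49, edgeR adjusted p = 0.0293), and 1 of the 2 mural miRNAs, miR-145-5p. Lower in HT were 1 of the 4 microglial and myeloid miRNAs, miR-223-3p (-5.62, edgeR adjusted p = 2.00e-59), 1 of the 2 red cell miRNAs, miR-451-5p (-0.54, edgeR adjusted p = 0.0579), and 1 of the 4 ependymal and choroid plexus miRNAs, miR-34c-5p (-0.56, edgeR adjusted p = 0.00191). The fit of this comparison gave the miRNAs almost no spread of their own, so its adjusted p-values can be too small. The 2 endothelial miRNAs had 0 called at an unadjusted p under 0.05 by edgeR and 0 by DESeq2. The ependymal and choroid plexus sum was 3736 to 4441 CPM in NC and 2954 to 3195 CPM in HT, and the astrocyte-enriched sum 4223 to 4816 CPM in NC and 5252 to 6982 CPM in HT, both without overlap. The neuronal sums overlapped, with 106312 to 115742 CPM in NC and 107117 to 116875 CPM in HT. The part of these in the result was not tested.

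Markers also moved in the other comparisons in which miR-219a-5p was called lower. In PVN HT + EA against HT + SEA, where 7.14% of all miRNAs were called, 1 of the 4 microglial and myeloid miRNAs was called higher, miR-223-3p (2.22-fold, edgeR adjusted p = 3.20e-07), and 1 lower, miR-142-3p (log2 fold change -0.28, edgeR adjusted p = 0.515). In that comparison 1 of the 3 astrocyte-enriched miRNAs was called lower, miR-29b-3p (-0.31, edgeR adjusted p = 0.0315), 1 of the 2 red cell miRNAs lower, miR-144-3p (-0.89, edgeR adjusted p = 4.19e-05), and 1 of the 2 mural miRNAs higher, miR-145-5p. With legacy = FALSE the adjusted p was 0.381 for both miR-223-3p and miR-29b-3p and 0.0408 for miR-144-3p. In CEA HT + EA against HT, where 5.28% of all miRNAs were called, miR-223-3p was called 7.98-fold higher (edgeR adjusted p = 0.000366), and 1 of 4 neuronal, 1 of 3 astrocyte-enriched and 1 of 2 red cell miRNAs were called lower, miR-128-3p (-0.40), miR-29b-3p (-0.65) and miR-144-3p (-0.88). In CEA HT + EA against HT + SEA, where 2.24% were called, both red cell miRNAs, miR-451-5p (-0.58) and miR-144-3p (-1.12), and the myeloid miR-142-3p (-0.41) were called lower. In CEA HT against NC, where 3.82% were called, miR-223-3p (-2.98, edgeR adjusted p = 6.97e-11), both red cell miRNAs, miR-451-5p (-0.46) and miR-144-3p (-0.75), and 2 of the 4 ependymal and choroid plexus miRNAs, miR-34c-5p (-0.52) and miR-449a-5p (-0.90), were called lower. In CEA HT against NC the fit gave the miRNAs no spread of their own, so the adjusted p of miR-223-3p can be too small. The part of these markers in the results was not tested.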

How the data were processed

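Small RNA libraries (3 for each of 4 treatments in PVN and CEA) were read as the authors deposited them, as raw read counts per miRNA for 703 known and 395 predicted miRNAs. A further 24 columns, marked as TPM and under names that the labels do not give, were not used. According to the study's methods, libraries were made with a NEBNext small RNA kit, reads that passed quality filters were aligned to the rat genome mRatBN7.2 with HISAT2 and counted with featureCounts, as stated for all library types together, and groups were compared with DESeq2. CPM are a library's counts scaled to a common total of 1e+06. The submitters' processing notes name the same tools but list GRCh38 and hg38, a human build. The miRNA annotation, the use of strand and the treatment of reads with several places are not given in the sources used here.

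Groups came from the labels. Counts were fitted with edgeR 4.0.16 (limma 3.58.1, R 4.3.3), TMM, glmQLFit and glmQLFTest, two-sided, over miRNAs with at least 1 count in the libraries compared. Each treatment comparison used the 6 libraries of its groups. PVN against CEA used all 24 with treatment as a covariate, and interactions 12. Standard errors are the log2 fold change over the square root of F. The prior degrees of freedom were large or infinite in some fits, so adjusted p-values can be too small, and edgeR's legacy = FALSE estimate was added after the data were seen. DESeq2 1.42.0, other scalings, filterByExpr, a robust estimate, all 4 groups of the nucleus, the replicate block and leaving out each library were alternatives. The method was run on simulated counts in which every miRNA had the same spread. Such counts cannot show whether large prior degrees of freedom make p-values too small. Ratios used counts plus 0.5 and exact permutation tests (scipy 1.17.1). Tables were made with pandas 2.3.3 and numpy 2.4.6 under Python 3.11.15, and figures with matplotlib 3.10.9.

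The miRNAs named are the members, their antisense miRNAs, a list from work on the oligodendrocyte lineage, cell type markers, and the 5 most alike in pattern to miR-219a-2-3p and miR-338-3p. Members and lists were chosen with earlier results of these data known. Replicate numbers are shared between groups. The check correlated deviations from the group mean between libraries of the same number over 366 miRNAs. Every pair was over 0.1 only in PVN HT + EA against HT (0.15 to 0.33) and CEA HT against NC (0.22 to 0.51), so pairing comes from the data there and not from the labels.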

Additional observations from a re-analysis of the deposited data

Results flagged for a closer look

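The effect of HT against NC on miR-338-3p was called as different between the nuclei. It was 0.65 higher in the PVN than in the CEA on the log2 scale (SE 0.265, edgeR interaction adjusted p = 0.942), with 0.57 in the PVN and -0.17 in the CEA. This interaction had an unadjusted p under 0.05, which flagged it, but its adjusted p did not pass. The call was lost with DESeq2, with filterByExpr and with edgeR's legacy = FALSE estimate. Left out in turn, the 12 libraries gave 0.43 to 0.90, and the call was lost without PVN HT replicate 3, PVN NC replicate 1 or CEA NC replicate 2. No group had enough libraries for a test of single outlying libraries, which needs at least 4.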

How the results depend on the processing

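The PVN against CEA differences of miR-219a-5p, miR-219a-2-3p, miR-219b, miR-338-3p and miR-338-5p, and the lower miR-219a-5p in PVN HT + EA against HT and against HT + SEA and in CEA HT + EA against HT, were called in all 8 alternatives and without any 1 library. Over all members and comparisons, 533 of 558 fold changes under an alternative, all 24 nucleus differences within 1 treatment and 605 of 648 with 1 library left out stayed on their side of the threshold, and none that was called changed sign.

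Counts of calls moved as follows, and the cause was not tested. In PVN HT against NC, filterByExpr called 65 miRNAs (107 as reported) and 0 members (1). In PVN HT + EA against HT, DESeq2 called 2 members (4). In PVN HT + SEA against HT, DESeq2 called 51 and filterByExpr 47 miRNAs (83). In PVN HT + EA against HT + SEA, DESeq2 called 47 and the fit over all 4 groups 45 miRNAs (71). In CEA HT against NC, DESeq2 and filterByExpr called 7 miRNAs each and legacy = FALSE 25 (38), while library totals, DESeq2, filterByExpr, legacy = FALSE and all 4 groups called 0 members (1). In CEA HT + EA against HT, DESeq2 called 26 and filterByExpr 22 miRNAs (53), and library totals 3 members (1). In CEA HT + SEA against HT, DESeq2 called 21, filterByExpr 11 and legacy = FALSE 26 miRNAs (47), and library totals and the robust estimate 1 member each (0). In CEA HT + EA against HT + SEA, DESeq2 called 8 and filterByExpr 9 miRNAs (23), and DESeq2, filterByExpr, the robust estimate, legacy = FALSE and all 4 groups 0 members (1). For the interactions, HT against NC gave 13 miRNAs with DESeq2, 12 with filterByExpr and 31 with legacy = FALSE (53), and 0 members with each (1). HT + EA against HT gave 6 and 5 miRNAs with DESeq2 and filterByExpr (20), and HT + SEA against HT 11 and 7 (28), with 1 member under library totals and the robust estimate (0). Scaling by library totals shifted the median of all miRNAs by 0.132 (log2) in CEA HT + EA against HT.

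With the replicate number as a block, members called rose from 4 to 5 in PVN HT + EA against HT and stayed at 1 in CEA HT against NC. In both, same-numbered libraries deviated together in these data, but the labels do not say what a shared number means. Where same-numbered libraries did not all deviate together, the block gave 31 miRNAs (47) in CEA HT + SEA against HT. It gave 2 members (1) in CEA HT + EA against HT + SEA.

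With 1 library left out, members called ranged from 0 to 1 in PVN HT against NC, 2 to 5 in PVN HT + EA against HT, 0 to 2 in PVN HT + SEA against HT, 1 to 3 in PVN HT + EA against HT + SEA, 0 to 2 in CEA HT against NC, 0 to 1 in CEA HT + SEA against HT, 0 to 2 in CEA HT + EA against HT + SEA, and 0 to 3 and 0 to 2 in the interactions of HT against NC and HT + SEA against HT. miRNAs called ranged from 25 to 94 in PVN HT + SEA against HT, 18 to 66 in CEA HT against NC, 25 to 70 in CEA HT + EA against HT, 17 to 58 in CEA HT + SEA against HT, 15 to 37 in CEA HT + EA against HT + SEA, and 34 to 74, 14 to 50 and 20 to 55 in the interactions of HT against NC, HT + EA against HT and HT + SEA against HT.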
